A study of Rattus norvegicus with 60 samples.

Results

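Fkbp5 encodes FKBP51, a co-chaperone of the receptors for corticosteroid hormones, and it was followed here together with 5 genes of the same protein complex. These 5 were the glucocorticoid receptor (Nr3c1), the mineralocorticoid receptor (Nr3c2), the co-chaperone FKBP52 (Fkbp4), the constitutive cytosolic Hsp90 (Hsp90ab1) and the co-chaperone p23 (Ptges3). Every probe set whose platform annotation gives 1 of the 6 symbols alone was taken, which gave 9 probe sets of the 31042 on the array. Fkbp5, Nr3c1 and Hsp90ab1 had 2 probe sets each, and the other 3 genes had 1 each. Fkbp5 was chosen by its change with the dose of deltamethrin on these same arrays, so its values by dose and between the compounds are given as a description without a test. The other 5 genes came in for their known place in the complex.

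RNA of the frontal cortex was measured in 60 adult male Long-Evans rats, which were 62 to 64 days old according to the labels. Each rat received 1 oral gavage in corn oil and was killed 6 h later. Deltamethrin was given at 0.3, 1 or 3 mg/kg to 8 rats each, permethrin at 1, 10 or 100 mg/kg to 8 rats each, and corn oil alone to 12 vehicle rats. Both compounds are pyrethroid insecticides that act on voltage-gated sodium channels, and deltamethrin carries an α-cyano group that permethrin lacks. The deltamethrin was a single isomer and the permethrin a mixture of cis and trans isomers. No samples were pooled, and the vehicle rats served both compounds.

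In the absence of hormone, the corticosteroid receptors sit in the cytoplasm in a complex with Hsp90 and p23. FKBP51 in this complex lowers the affinity of the glucocorticoid receptor for hormone, and its exchange for FKBP52, which binds the motor protein dynein, goes along with movement of the receptor to the nucleus. Fkbp5 is itself a target gene of the glucocorticoid receptor, which closes a short negative feedback loop, and it is known in brain as a responsive marker of corticosteroid action after stress. The mineralocorticoid receptor binds corticosterone more tightly than the glucocorticoid receptor does, and it shares the same chaperones.

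The promoters of the 2 FKBP genes are shown because these close relatives act in opposite ways on the receptor. The 250 bases before the transcription start are printed from RefSeq on build GRCr8, with the GC box GGGCGG or its complement CCGCCC in capitals. The Fkbp5 promoter lies at chr20:6543556-6543805 on the minus strand, and the Fkbp4 promoter at chr4:163397919-163398168 on the minus strand.
Fkbp5 promoter: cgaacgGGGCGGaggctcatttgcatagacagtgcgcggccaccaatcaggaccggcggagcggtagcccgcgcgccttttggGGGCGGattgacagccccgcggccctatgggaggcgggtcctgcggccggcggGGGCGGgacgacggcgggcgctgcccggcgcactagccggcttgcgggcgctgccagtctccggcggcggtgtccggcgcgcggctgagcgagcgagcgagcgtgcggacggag
Fkbp4 promoter: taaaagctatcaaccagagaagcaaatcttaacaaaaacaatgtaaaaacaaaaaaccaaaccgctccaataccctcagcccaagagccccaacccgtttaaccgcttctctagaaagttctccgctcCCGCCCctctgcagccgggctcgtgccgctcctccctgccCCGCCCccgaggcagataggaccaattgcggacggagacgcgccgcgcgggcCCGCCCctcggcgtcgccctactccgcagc
The Fkbp5 promoter is 76.0% G or C and the Fkbp4 promoter 59.6%, against a median of 51.2% over the 33469 promoters of the table. Both hold 3 GC boxes, a motif found on either strand in 30.5% of all promoters. The Fkbp4 window holds 1 match to GAANNTTC, a pair of heat shock factor units, which occurs in 7.23% of promoters, while the Fkbp5 window holds none. The single arm AGAACA of the glucocorticoid response element was searched on both strands and is in none of the 6 promoters found for 5 of the 6 genes, against 17.5% of all promoters. The full palindromic glucocorticoid response element was in 0.012% of all promoters and in none of these. A match or its lack describes these letters in this window only.

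Values are log2 RMA values, so that a difference of 1 is a factor of 2, and array values have no read depth. The 60 array medians lay between 7.07 and 7.20. On their first 2 principal components, which held 58.0% and 10.8% of the variance, the arrays fell into set A of 24 arrays (replicates 1 to 3 of every dose and 1 to 6 of vehicle) and set B of 36. Each set held every group. The study's methods describe 2 groups of animals dosed on different days, with the same group sizes as these sets, and the labels do not say which array belongs to which day. Along the first component, 15 arrays stood apart from the other 45, of which 14 were in set A and 1 in set B. Of the rats given deltamethrin they held 1, 3 and 2 at 0.3, 1 and 3 mg/kg, and of the others 2, 3 and 2 rats at 1, 10 and 100 mg/kg permethrin, and 2 vehicle rats. Cortical neuron markers Slc17a7, Neurod6, Gad1 and Camk2a had means between percentile 80.9 and 99.4 of all probe sets. The 4 striatal markers Drd1, Drd2, Adora2a and Ppp1r1b lay between percentile 73.3 and 97.3, and the share of striatal tissue in each sample was not measured.

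Fkbp5 stood higher in the cortex of rats given the upper 2 doses of deltamethrin, on both of its probe sets, and stayed near vehicle after permethrin. On the brighter probe set the lowest, median and highest values were 7.97, 8.47 and 8.92 in the 12 vehicle rats. They were 8.24, 8.53 and 8.66 at 0.3 mg/kg deltamethrin, 8.52, 8.67 and 9.05 at 1 mg/kg, and 8.58, 8.97 and 9.30 at 3 mg/kg. All 8 rats at 3 mg/kg and all 8 at 1 mg/kg lay above the vehicle mean, and 4 and 1 of them lay above the highest vehicle rat, so the groups still overlapped. The vehicle rats spread more widely (SD 0.26) than the rats at 0.3 mg/kg (SD 0.14), and 1 vehicle rat at 8.92 reached the middle of the top dose group.

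The group mean of the brighter probe set was 8.96 ± 0.27 (SD, n = 8) at 3 mg/kg deltamethrin against 8.46 ± 0.26 (SD, n = 12) in vehicle rats, a log2 difference of 0.49 (SE 0.09) or a ratio of 1.41. At 1 mg/kg the difference was 0.24 and at 0.3 mg/kg 0.02, each with the same SE. Over the permethrin doses the lowest, median and highest values were 8.06, 8.39 and 8.67 at 1 mg/kg, 8.35, 8.58 and 8.73 at 10 mg/kg, and 8.26, 8.60 and 8.82 at 100 mg/kg. No permethrin rat exceeded the highest vehicle rat. The differences from vehicle were -0.11, 0.10 and 0.11 at 1, 10 and 100 mg/kg permethrin. In bulk tissue, fewer cells that express a gene and less RNA per cell cannot be told apart, here and below.

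**Figure D1:**
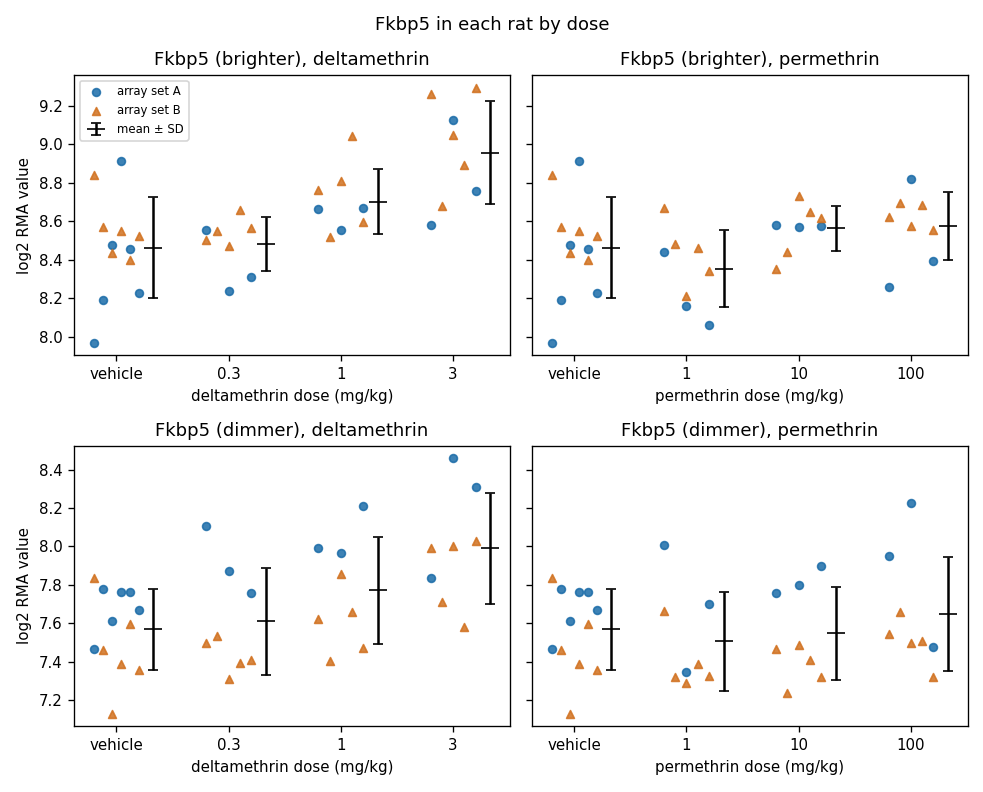
Log2 RMA values of the 2 Fkbp5 probe sets (rows) in each rat, by dose of deltamethrin and permethrin in mg/kg (columns), with vehicle at the low end of both axes. Circles are array set A and triangles array set B, and bars show the group mean ± SD. The values climb over the upper deltamethrin doses in both rows, while the permethrin groups stay within or near the vehicle range.

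The dimmer probe set gave the same order of the deltamethrin doses. Its lowest, median and highest values were 7.13, 7.60 and 7.84 in vehicle rats and 7.31, 7.51 and 8.11 at 0.3 mg/kg. They were 7.40, 7.76 and 8.21 at 1 mg/kg and 7.58, 8.00 and 8.46 at 3 mg/kg. At 0.3, 1 and 3 mg/kg deltamethrin, 2, 4 and 5 of 8 rats lay above the highest vehicle rat, and the groups overlapped. Unlike on the brighter probe set, some permethrin rats did too, 1, 1 and 2 of 8 at 1, 10 and 100 mg/kg. All of these permethrin rats, and both such rats at 0.3 mg/kg deltamethrin, were in array set A. This probe set averaged 7.86 in set A and 7.52 in set B, and the highest vehicle rat was in set B. Those at 1 and 3 mg/kg deltamethrin came from both sets. The differences from vehicle were 0.04, 0.20 and 0.42 (SE 0.12 each) at 0.3, 1 and 3 mg/kg deltamethrin, the last a ratio of 1.34, and -0.06, -0.02 and 0.08 at 1, 10 and 100 mg/kg permethrin.

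The levels of Fkbp5 ran, from high to low on the brighter probe set, from 3 and 1 mg/kg deltamethrin through 100 and 10 mg/kg permethrin and 0.3 mg/kg deltamethrin to vehicle and 1 mg/kg permethrin. No 2 neighbours in this order were further apart than the larger of their SDs. On the dimmer one the upper 3 places were the same, and vehicle stood above 10 mg/kg permethrin. Over all 9 probe sets, 0 of 54 neighbouring pairs of group means were separated by more than the larger SD.

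The sole dose common to the compounds was 1 mg/kg. There the brighter Fkbp5 probe set averaged 8.70 ± 0.17 after deltamethrin and 8.35 ± 0.20 after permethrin (SD, n = 8 each), a difference of 0.35 (SE 0.10). The 8 deltamethrin rats were all above the vehicle mean of the probe set, against 2 of 8 permethrin rats, and the 2 groups overlapped. On the dimmer one the difference was 0.27 (SE 0.13). At their top doses, which are not equal in mg/kg, the brighter Fkbp5 probe set stood at 8.96 after 3 mg/kg deltamethrin and at 8.58 ± 0.18 (SD, n = 8) after 100 mg/kg permethrin.

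The 2 Fkbp5 probe sets moved together between rats, although the array sets shifted them in opposite ways. Over all doses, the brighter probe set averaged 8.48 in set A and 8.64 in set B, while the dimmer one averaged 7.86 in set A and 7.52 in set B. Within set A the difference between 3 mg/kg deltamethrin and vehicle was 0.45 on the brighter one and 0.53 on the dimmer one (SE 0.17 and 0.16), and within set B it was 0.48 and 0.40 (SE 0.10 each). With group and set means removed, the values of the 2 probe sets had a Pearson r of 0.61 and a Spearman rho of 0.58 over 60 rats. The r was 0.59 in the 24 rats of set A and 0.66 in the 36 rats of set B, and without the 2 rats farthest from the median it was 0.64 over all rats. These correlations are a description, since both probe sets read the same RNA on the same arrays.

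Among the receptors, neither Nr3c1 nor Nr3c2 passed the test at any dose. The brighter Nr3c1 probe set had lowest, median and highest values of 8.45, 8.82 and 9.23 at 3 mg/kg deltamethrin, against 8.13, 9.02 and 9.30 in vehicle rats. The difference was -0.06 (95% interval -0.53 to 0.41). At 100 mg/kg permethrin it ran from 7.89 over a median of 8.93 to 9.30, with a difference of -0.09 (95% interval -0.56 to 0.37). Its 7.02 in 1 rat at 10 mg/kg permethrin was the lowest of all 60, and the difference there was -0.21. All dose groups of this probe set overlapped with vehicle.

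The other Nr3c1 probe set was dim, with a mean of 4.76 at percentile 7.22 of all probe sets, and no rat of any dose exceeded its highest vehicle value of 5.02. Its differences from vehicle ran from -0.09 at 100 mg/kg permethrin to 0.00 at 1 mg/kg permethrin. The mineralocorticoid receptor Nr3c2 had lowest, median and highest values of 8.27, 8.36 and 8.87 at 3 mg/kg deltamethrin, against 8.01, 8.43 and 8.70 in vehicle rats. The groups overlapped, with a difference of 0.05 (95% interval -0.13 to 0.23). The farthest of its 6 differences was 0.13 at 10 mg/kg permethrin (95% interval -0.05 to 0.31), where 2 of 8 rats exceeded the highest vehicle rat.

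Fkbp4, the close relative of Fkbp5 in the complex, did not pass the test at any dose. Its lowest, median and highest values were 9.54, 10.16 and 10.64 at 3 mg/kg deltamethrin, against 9.67, 9.84 and 10.75 in vehicle rats. The difference was 0.11 (SE 0.17, 95% interval -0.24 to 0.45), and the other 5 differences ran from -0.03 to 0.13. No deltamethrin rat exceeded the highest vehicle rat, and 1 rat at 3 mg/kg lay below the lowest.

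The Hsp90 and p23 genes likewise did not pass at any dose. The brighter Hsp90ab1 probe set, which reads the main constitutive Hsp90, had lowest, median and highest values of 12.67, 12.84 and 13.02 at 3 mg/kg deltamethrin, against 12.53, 12.79 and 13.00 in vehicle rats. Its difference there was 0.05 (95% interval -0.09 to 0.18), and that of its dimmer probe set was 0.01 (95% interval -0.11 to 0.12). Its 2 probe sets are among the brightest on the array, at percentiles 99.7 and 99.4. RefSeq names 23 pseudogenes after Hsp90ab1 and 1 after Ptges3, so that these probe sets could also bind related transcripts.

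Ptges3, which encodes p23, the co-chaperone that stabilizes the hormone-binding form of the receptor, had lowest, median and highest values of 10.45, 11.31 and 11.56 at 3 mg/kg deltamethrin. In vehicle rats these were 10.08, 11.27 and 11.49. The groups overlapped almost wholly, with a difference of 0.04 (95% interval -0.45 to 0.54). The widest of its groups was 1 mg/kg permethrin, with values from 9.55 to 11.60 (SD 0.81, n = 8).

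Of the 7 probe sets of the 5 partner genes, 0 had a limma adjusted p under 0.05 at any of the 6 doses, as did 0% of all 31042 probe sets in each comparison. At an unadjusted p under 0.05 the partners gave 0 of 7 at each of the 6 doses. The share of all probe sets at that threshold was 0.751%, 2.24% and 1.36% for deltamethrin in order of dose, and 1.18%, 3.48% and 1.24% for permethrin likewise. The partners' median difference at 3 mg/kg deltamethrin was 0.04, with a range from -0.07 to 0.11, against a median of -0.01 over all probe sets.

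Between the compounds at 1 mg/kg, 0 of the 7 partner probe sets passed the adjusted threshold and 1 had an unadjusted p under 0.05, against 0% and 2.73% of all probe sets. This was the brighter Hsp90ab1 probe set, at 12.84 ± 0.15 after deltamethrin and 12.67 ± 0.12 after permethrin (SD, n = 8 each). Its difference was 0.17 (95% interval 0.02 to 0.31, limma unadjusted p = 0.0238), and it was 0.33 within array set A and 0.07 within set B. For the other 6 the intervals of the difference included 0, from the dimmer Nr3c1 probe set (-0.14 to 0.05) to the brighter Nr3c1 probe set (-0.60 to 0.43). The linear slope on deltamethrin dose passed for 0 of 7 partner probe sets, and 0 had an unadjusted p under 0.05, against 0% and 1.36% of all. The slope on permethrin dose passed for 0 of 7, and 1 had an unadjusted p under 0.05, the dimmer Nr3c1 probe set, against 0% and 0.696% of all.

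**Figure D2:**
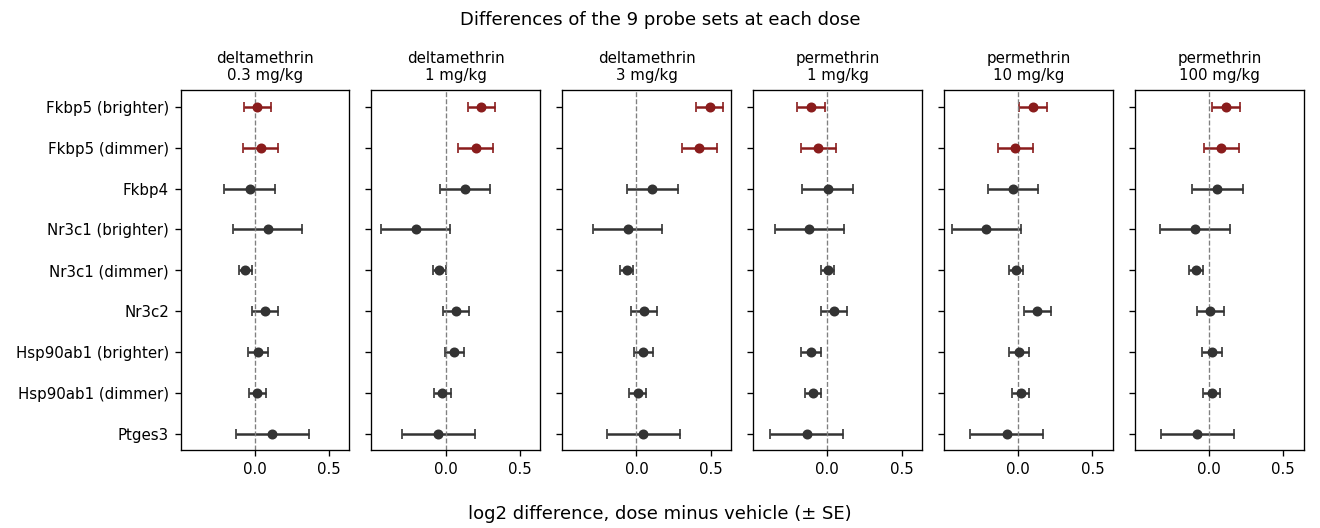
Log2 difference from vehicle (x axis) of each of the 9 probe sets (rows) at the 6 doses (panels), with bars of ± 1 SE from 1 fit of all 60 arrays. The 2 Fkbp5 rows in red reach 0.49 and 0.42 at 3 mg/kg deltamethrin, while the partner rows stay between -0.21 and 0.13 with wide bars for the brighter Nr3c1 probe set, Ptges3 and Fkbp4.

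The members differed widely in their spread between rats. Within groups, Ptges3 had an SD of 0.55 and the brighter Nr3c1 probe set one of 0.52, at percentiles 96.1 and 95.3 of all probe sets, and Fkbp4 had 0.38, at percentile 88.3. Fkbp5 had 0.20 and 0.26, at percentiles 58.1 and 72.5, while the 2 Hsp90ab1 probe sets had 0.14 and 0.12, at percentiles 32.2 and 18.1. The median within-group SD over all probe sets was 0.18.

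This spread lay along the first principal component of the arrays. Ptges3 ran from 9.55 to 11.24 in the 15 arrays that stood apart and from 11.15 to 11.63 in the other 45, with means of 10.29 and 11.37. The brighter Nr3c1 probe set ran from 7.02 to 8.51 and from 8.49 to 9.53, so that for both genes the ranges barely overlapped. Fkbp4 went the other way, from 10.06 to 10.81 in the 15 arrays and from 9.07 to 10.40 in the other 45, with means of 10.54 and 9.85. The 15 arrays were themselves defined on this component, which held 58.0% of the variance over all 31042 probe sets. How many other probe sets separate these arrays likewise was not counted, so this cannot be read as particular to the complex.

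The brighter Fkbp5 probe set, by contrast, had means of 8.63 in the 15 arrays and 8.56 in the other 45, and its 2 ranges overlapped widely. The dimmer Fkbp5 probe set averaged 7.87 and 7.59, Nr3c2 8.34 and 8.52, and the brighter Hsp90ab1 probe set 12.91 and 12.75. The labels give no reason for this axis, and its source was not tested. Without the 15 arrays, the difference of the brighter Fkbp5 probe set between 3 mg/kg deltamethrin and vehicle was 0.57 (SE 0.10), and 0 of the 7 partner probe sets passed at any dose.

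**Figure D3:**
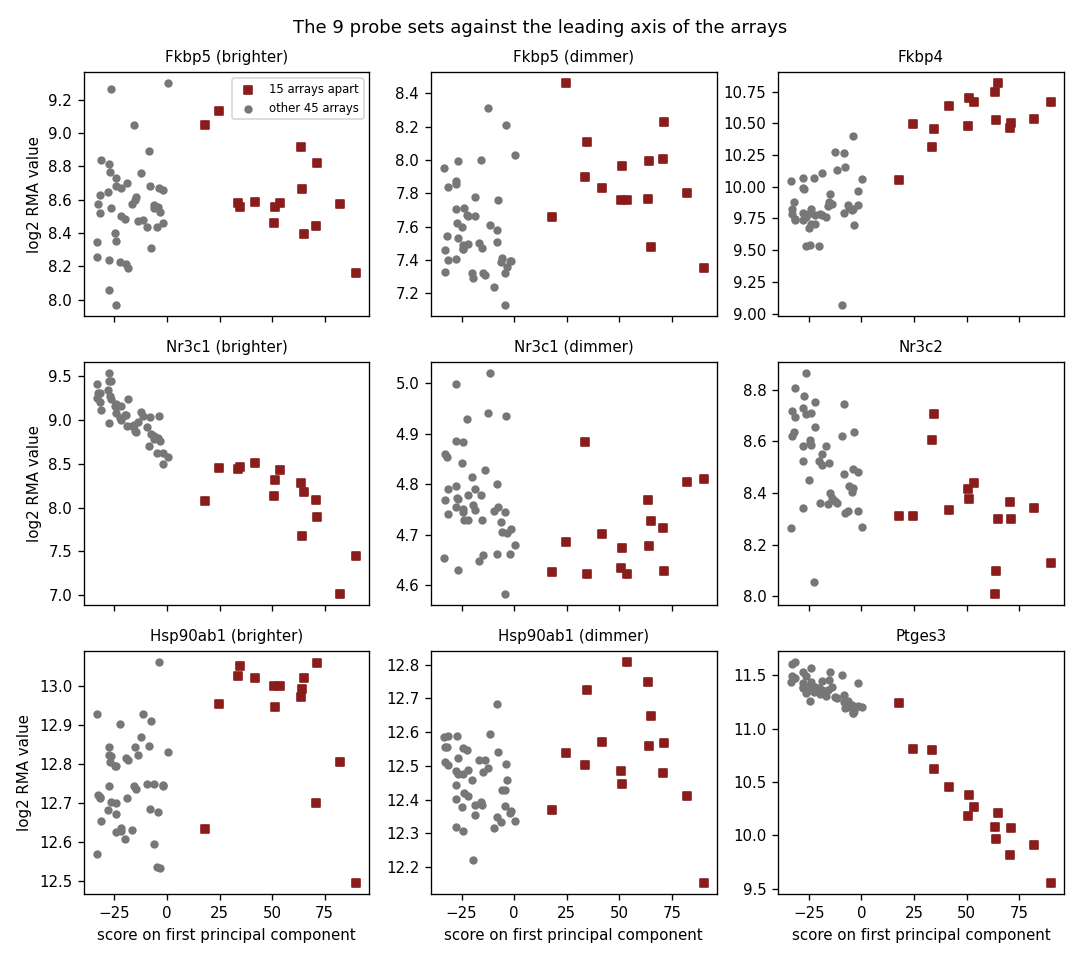
Log2 RMA values of the 9 probe sets (y axes) against the score of each of the 60 arrays on the first principal component (x axis). Red squares are the 15 arrays that stood apart and grey circles the other 45; Ptges3 and the brighter Nr3c1 probe set fall along the axis, Fkbp4 rises, and the brighter Fkbp5 probe set shows little trend.

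Rats of 1 dose group also differed from each other in Fkbp5, which the choice of the gene did not use, and the lowest p-value in a test of what followed these differences belonged to Gpd1. For each probe set a slope on the brighter Fkbp5 probe set was fitted with dose group and array set as terms, so that a slope of 1 means 1 log2 unit per log2 unit of Fkbp5. Both probe sets of Gpd1, which encodes the cytosolic glycerol-3-phosphate dehydrogenase, came among the 8 lowest p-values of singly annotated probe sets, with slopes of 1.67 (SE 0.22, limma adjusted p = 1.95e-05) for the brighter one and 1.14 (SE 0.18, adjusted p = 0.000218) for the dimmer one. The clock gene Cry1 had a slope of 1.03 (SE 0.14, limma adjusted p = 4.28e-05). The others were 2 probe sets of Hip1, an endocytic adaptor, with 0.71 and 0.81, the mitochondrial pyrimidine carrier Slc25a33 with 0.69, the antioxidant sulfiredoxin Srxn1 with 0.61 and the phospholipase Pla2g12a with 0.41.

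Of the partners, 3 of 7 probe sets passed in this fit, against 32.4% of all 31040 probe sets tested (10055), and 42.4% of all had an unadjusted p under 0.05, so that many probe sets besides the partners followed Fkbp5. Those that passed were Fkbp4, with a slope of 0.53 (SE 0.15, limma adjusted p = 0.00747), the brighter Nr3c1 probe set, with -1.02 (SE 0.31, limma adjusted p = 0.0114), and Ptges3, with -0.93 (SE 0.27, limma adjusted p = 0.00838). The other 4 did not pass, with slopes of -0.14 for Nr3c2, -0.09 for the dimmer Nr3c1 probe set, and 0.09 and 0.18 for the brighter and dimmer Hsp90ab1 probe sets.

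**Figure D4:**
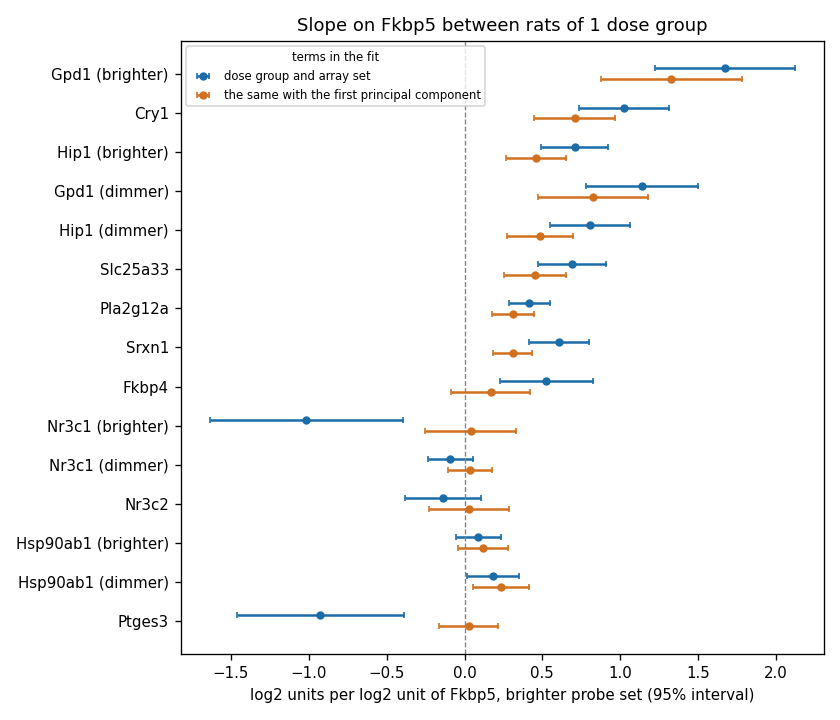
Slopes on the brighter Fkbp5 probe set (x axis, log2 units per log2 unit, with 95% intervals) for the 8 probe sets named by their low p and the 7 partner probe sets, from the fit with dose group and array set (blue) and with the first principal component added (orange). The upper 8 rows stay above 0 in both fits, whereas the brighter Nr3c1 probe set at -1.02 and Ptges3 at -0.93 move to 0.04 and 0.03.

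With the first principal component as a further term, the partner slopes were 0.17 for Fkbp4, 0.04 for the brighter Nr3c1 probe set and 0.03 for Ptges3, and 0 of 7 partner probe sets passed, against 0.139% of all (43 of 31040). All 8 named probe sets still passed, among them the brighter Gpd1 probe set with a slope of 1.33 (SE 0.23, limma adjusted p = 0.00799) and Cry1 with 0.71 (SE 0.13, limma adjusted p = 0.0139). Without the 15 arrays, 4 probe sets passed, which were both of Gpd1 and those of Pnpla2 and Wfdc1, the last 2 named after their values were seen. With the other Fkbp5 probe set as the covariate, 14 probe sets passed but none of the 8, and the slope of the brighter Gpd1 probe set was 0.84 (SE 0.30). Leaving out 1 vehicle rat, replicate 4, lowered the count to 5577 of 31040.

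**Figure D5:**
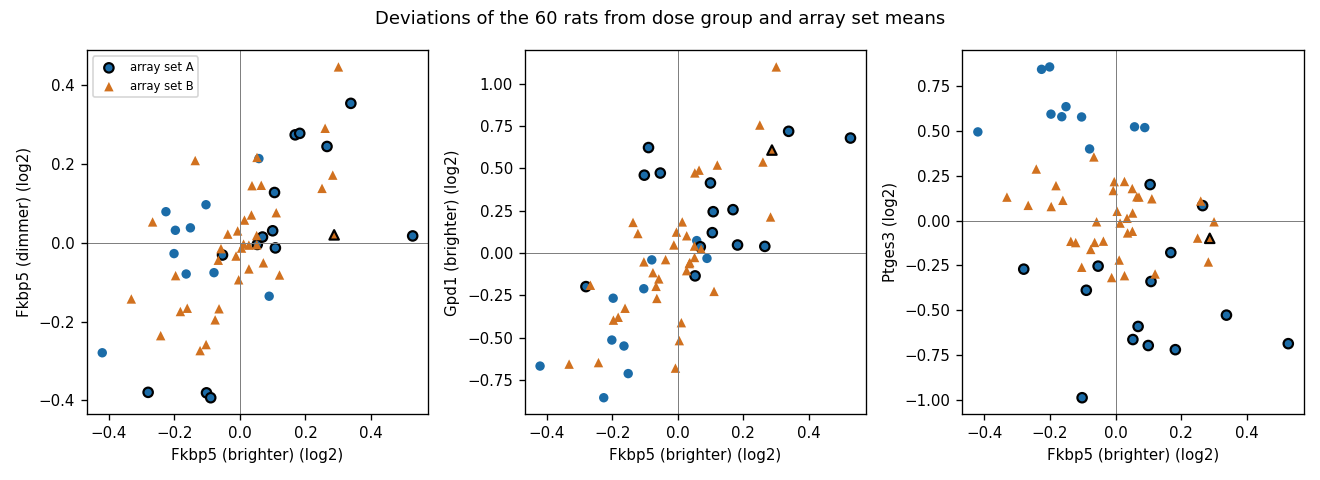
Deviations of each of the 60 rats from dose group and array set means, in log2 units, for the brighter Fkbp5 probe set (x axes) against the second Fkbp5 probe set, the brighter Gpd1 probe set and Ptges3 (y axes). Circles are array set A, triangles set B, and black outlines mark the 15 arrays that stood apart; Gpd1 rises with Fkbp5 in both sets, while Ptges3 falls mainly through the outlined circles.

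The slope of the brighter Gpd1 probe set on Fkbp5 was 1.39 (SE 0.34) in set A and 1.92 (SE 0.31) in set B, and that of Cry1 was 1.11 (SE 0.26) and 0.84 (SE 0.18). In set A 0 probe sets passed in limma, although 11067 had an unadjusted p under 0.05, and 5 passed in set B, among them the brighter Gpd1 probe set (limma adjusted p = 0.00716). Of the partners, 0 of 7 passed in either set, although Ptges3 and the brighter Nr3c1 probe set had negative slopes in both.

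Of 14 other chaperones that load and regulate the receptors 12 were measured, and 0 passed in limma at any dose, with 0 at an unadjusted p under 0.05 at 3 mg/kg deltamethrin and 1 at 10 mg/kg permethrin, against 1.36% and 3.48% of all probe sets. At 3 mg/kg deltamethrin 11 of 12 differences were above 0, with a median of 0.05 and a range from -0.06 to 0.08, against a median of -0.01 over all probe sets. The genes with the lowest p there were Ahsa1, the activator of the Hsp90 ATPase, at 0.08 (SE 0.06), Fkbp1a, which encodes the small immunophilin FKBP12, at 0.06 (SE 0.05), and the kinase co-chaperone Cdc37 at 0.08 (SE 0.11). The ranges at the other doses were wider, from -0.06 to 0.11 at 0.3 mg/kg and from -0.21 to 0.16 at 1 mg/kg deltamethrin, from -0.21 to 0.07 at 1 mg/kg permethrin, from -0.32 to 0.17 at 10 mg/kg permethrin and from -0.19 to 0.11 at 100 mg/kg permethrin, where 8 of 12 differences were above 0, with a median of 0.06.

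Genes of corticosteroid supply and of receptor coregulators, 9 of 10 measured, had 0 calls in limma at any dose. At 3 mg/kg deltamethrin 1 of them was lower at an unadjusted p under 0.05, against 1.36% of all probe sets, and the median difference was 0.02. At that threshold 1 was lower at 0.3 mg/kg deltamethrin, 1 higher and 1 lower at 1 mg/kg deltamethrin, and 1 lower at 100 mg/kg permethrin. The shares of all probe sets there were 0.751%, 2.24% and 1.24%. Abcb1a, a P-glycoprotein that exports some corticosteroids at the blood-brain barrier, had a difference of -0.35 (SE 0.15, 95% interval -0.65 to -0.06, limma adjusted p = 1.00) at 3 mg/kg deltamethrin and of -0.36 (SE 0.15) at 100 mg/kg permethrin. Hsd11b2, which inactivates corticosterone, had -0.15 (SE 0.09), and the coactivator Crebbp 0.09 (SE 0.06).

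Among 16 genes known to respond to glucocorticoids 14 were measured, and 0 passed at any dose in limma fitted to all 60 arrays with dose group as the only term. At 3 mg/kg deltamethrin, 8 of 14 differences were above 0, with a median of 0.09 and a range from -0.28 to 0.99, and 3 had an unadjusted p under 0.05, all of them higher, against 1.36% of all probe sets. These were Gpd1 at 0.99 (SE 0.20, limma adjusted p = 0.123), the metallothionein Mt2A at 0.38 (SE 0.11, adjusted p = 1.00) and Tsc22d3, also known as Gilz, at 0.19 (SE 0.09, adjusted p = 1.00). The list was drawn up with earlier results of these arrays known. The paper lists the probe sets of Gpd1 and Mt2A as dose-responsive to deltamethrin on these same arrays. The count and the p-values of these genes by dose are therefore a description and no independent test. The difference of Gpd1 was 1.02 with array set as a block and 0.97 with the first principal component in the fit. Without the 15 arrays that stood apart it was 1.07. It was 1.06, 1.08 and 1.10 without vehicle replicate 4, vehicle replicate 7 or deltamethrin 3 mg/kg replicate 5. Gpd1 passed the threshold in these fits, but not without any other single rat of these groups. Nor did it pass with arrays centred on their median or among the probe sets brighter than the median. Because Gpd1 was already listed for deltamethrin dose on these arrays, passing in some fits is no independent evidence. At 100 mg/kg permethrin 10 of 14 differences were above 0, with a median of 0.04 and a range from -0.04 to 0.28, and 1 was higher at an unadjusted p under 0.05, against 1.24% of all probe sets. The 3 genes named for their p at 3 mg/kg deltamethrin stood there at 0.22, 0.04 and 0.17. At 0.3 mg/kg deltamethrin 2 of 14 differences were above 0, with a median of -0.07.

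Markers of cell types were compared with vehicle beside Fkbp5. At 3 mg/kg deltamethrin the median difference was -0.03 over 5 oligodendrocyte, 0.00 over 6 astrocyte, 0.00 over 4 microglia, -0.04 over 4 endothelial and mural, -0.01 over 4 cortical neuron and -0.08 over 2 choroid plexus markers. The 4 striatal markers were all above 0, with a median of 0.15 and a range from 0.11 to 0.18. Their mean level ran from 9.47 over a median of 9.73 to 9.89 in the 8 rats at 3 mg/kg, against 9.12, 9.53 and 10.24 in vehicle rats. Of the 4 markers, 0 had an unadjusted p under 0.05, against 1.36% of all probe sets. At 0.3 mg/kg deltamethrin all 4 were below 0, with a median of -0.26, and 0 had an unadjusted p under 0.05, against 0.751% of all probe sets. Their mean level in these rats ran from 7.83 over a median of 9.55 to 9.76 (SD 0.65), so that the median rat lay near the vehicle median. The choroid plexus markers had medians of -0.71 at 1 mg/kg deltamethrin, -0.72 at 10 mg/kg permethrin and -0.42 at 100 mg/kg permethrin. The 2 markers differed, with -1.33 and -0.08, -1.35 and -0.10, and -0.76 and -0.09 at these doses. Their mean level in vehicle rats had a median of 6.71, a highest value of 9.68 and an SD of 1.15. Its medians at the same doses were 6.47, 6.47 and 6.73. Neither marker had an unadjusted p under 0.05 there, against 2.24%, 3.48% and 1.24% of all probe sets. The cortical neuron markers had a median of -0.17 at 1 mg/kg permethrin, with a lowest difference of -0.53. Of these 4, 1 was lower at an unadjusted p under 0.05, against 1.18% of all probe sets. The part of these markers in the Fkbp5 values was not tested.

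Over the 7 group means, the probe sets whose pattern was most like the brighter Fkbp5 probe set, among the 2000 with the widest range of group means, were Fstl1 (Pearson r = 0.97), Igf1r (0.97), the brighter Gpd1 probe set (0.93), Fam168a (0.92) and Gpatch4 (0.91). With 7 groups that share 1 set of vehicle rats, this is a description. Gpd1 had the widest range of group means of these, 1.13 against 0.60 for Fkbp5. Fstl1 and Igf1r ranged over 0.28 each, and the second Fkbp5 probe set had an r of 0.96.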

How the data were processed

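RNA from each rat was hybridised to 1 Affymetrix Rat 230 2.0 array. The authors deposited log2 values after RMA, which corrects the background, normalises by quantiles and summarises probes to probe sets. No signal of single probes was used, and probe sets have no detection call here. Of 31042 probe sets, 20826 have 1 symbol in the platform annotation, 436 several and 9780 none.

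The members and gene lists were chosen with earlier results of these data known. limma 3.58.1 in R 4.3.3 was fitted to all 60 arrays with 7 groups and no batch term (lmFit, eBayes), and p-values were adjusted by Benjamini-Hochberg over every probe set, with a threshold of 0.05. The group sizes of the array sets equal those of 2 cohorts that the methods describe as dosed on different days, and the labels name no cohort. The dose comparisons had array set as a block among the alternatives. The association added array set and the brighter Fkbp5 probe set to the groups, and left out both Fkbp5 probe sets. The fits were tested on simulated data with independent noise for each probe set. These held no array sets and no shared axis, so they cannot show how the array structure affects the association. Rats are separate animals, housed 2 per cage, with cage unlabelled.

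All members were named. Of each list, the 3 genes with the lowest p at 3 mg/kg deltamethrin were named, each by its brightest probe set. The 8 singly annotated probe sets with the lowest p in the association and the 5 most like Fkbp5 over group means were named. Summaries used Python 3.11.15.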

Additional observations from a re-analysis of the deposited data

Results flagged for a closer look

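Single rats lay far from the rest of their dose group for 3 of the 54 combinations of probe set and dose group with 8 rats, where chance alone gives about 1 in 20. The brighter Nr3c1 probe set was 7.02 in replicate 2 at 10 mg/kg permethrin, while the other 7 rats ran from 8.42 to 9.33. Ptges3 was 10.62 in replicate 1 at 0.3 mg/kg deltamethrin, while the others ran from 11.20 to 11.49. Both arrays belong to set A and to the 15 that stood apart. The dimmer Nr3c1 probe set was 5.00 in replicate 3 at 1 mg/kg permethrin, against 4.71 to 4.82 in the others, on an array of set A that did not stand apart.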

How the results depend on the processing

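The log2 differences of Fkbp5 moved by less than 1 residual SD under every alternative run, and 0 of 7 partner probe sets passed in limma at any dose or between the compounds under any of them. The counts of other probe sets past the threshold, 0 in each dose comparison, changed with terms for the array structure. With the first principal component as a covariate they were 1 at 1 mg/kg and 4 at 3 mg/kg deltamethrin, 5 for the deltamethrin slope and 4 for the permethrin slope. With array set as a block they were 1 at 3 mg/kg deltamethrin (Gpd1), 2 for the deltamethrin slope and 1 for the permethrin slope. Alternatives chosen after seeing the data were both terms together, which gave 9 at 3 mg/kg deltamethrin, 1 at 100 mg/kg permethrin, 1 between the compounds, 8 and 9 for the deltamethrin and permethrin slopes, and leaving out the 15 arrays, which gave 1 and 4 at 1 and 3 mg/kg deltamethrin, 1 at 100 mg/kg permethrin, 1 between the compounds, and 3 and 2 for the slopes. The deltamethrin slope also gave 1 on log10 dose, 1 among probe sets brighter than the median and 1 with an intensity trend, each time Gpd1, and the permethrin slope 1 among those brighter probe sets. Leaving out 1 rat gave 0 to 1 at 3 mg/kg deltamethrin, the 1 without vehicle replicate 4 or 7 or deltamethrin replicate 5. The Gpd1 calls among these counts are a description, since the paper lists Gpd1 for deltamethrin dose on these arrays. The same holds for the calls of Hspb1 (Hsp27 in the paper), Cryab, Camk1g, Ddc and Lrg1, listed there for deltamethrin. It also holds for those of Bdnf and Crh, listed for permethrin.

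The count of probe sets associated with Fkbp5, 10055, was 15829 after quantile normalization, 584 without the set term, 0 within set A, 5 within set B, 43 with the first principal component, 14 with the other Fkbp5 probe set and 4 without the 15 arrays, and 5577 to 11759 with 1 rat left out, lowest without vehicle replicate 4. The 3 partner calls were 3 to 4 with 1 rat left out, the 4 without deltamethrin 3 mg/kg replicate 7 or 8, and were 0 under the last 6 of the settings before that. The slope of Fkbp4 turned to -0.13 without the set term and to -0.092 with the other Fkbp5 probe set, and that of Pla2g12a to -0.088 without the set term. The brighter Nr3c1 probe set turned to 0.040 and Ptges3 to 0.028 with the first principal component, and to 0.20 and 0.10 with the other Fkbp5 probe set. The cause was not tested.

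The replicate number goes along with array set, since set A holds numbers 1 to 3 of every dose and 1 to 6 of vehicle. Per dose, 1 to 4 of 8 numbers correlated above 0.1 with the same number of vehicle. Because of the array sets, this count cannot show whether rats of 1 number share anything more. With the replicate number as a block, 6990 probe sets and 2 of the partners passed in the association, 1 passed for the permethrin slope, and 0 partner probe sets passed at any dose. Signal near background limits what the dimmer Nr3c1 probe set can show, and the number of rats limits the precision of all values.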
